A study of Homo sapiens with 12 samples.

Results

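REC1, an established human line of mantle cell lymphoma (a cancer of B cells marked by overproduction of cyclin D1), was compared after 8 h and after 4 h in culture. The comparison used 8 of the 12 RNA-sequencing libraries of the study, chosen by the time and treatment named in the headers of the count table: 4 libraries taken at 8 h and 4 taken at 4 h. At 8 h there was 1 library each of cells given ibrutinib, SPX5551, ibrutinib with SPX5551 (the combination) or DMSO, the solvent control, and at 4 h the same 4. Ibrutinib is a covalent inhibitor of BTK, a kinase that passes on signals of the B-cell receptor. SPX5551, called pol5551 in the headers, is an inhibitor of CXCR4, the receptor of a chemokine that guides B cells. All 8 libraries therefore shared the line and the set of treatments and differed in time. Anything else that differed between the 8 h and the 4 h libraries, such as sample handling, cannot be told apart from time. In the pairs given an agent, time may also be the length of exposure to it. The sources used here give no doses, the labels do not state from which moment the hours were counted, and no library from an earlier moment was analysed here. Each 8 h library was set against the 4 h library of its treatment (a pair), so that the 4 treatments stood in as replicates of a time. All p-values measure the spread of the difference between treatments, since nothing in the labels says that separate cultures were grown for each library.

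Transcript levels in a dividing cell line move with the hours that follow a change of medium or density, whichever agent is present. In B cells, NF-kappaB factors switch on activation markers, chemokines and survival genes, and also the genes of their own inhibitors, so that the response is self-limiting. FOXO factors work in the other direction: when growth signals are weak they raise genes that slow the cell cycle. Sterol-regulated factors raise the enzymes of cholesterol synthesis when membrane sterol is short, and MYC raises the genes that build ribosomes.

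The libraries held 20147758 to 28934030 counts at 8 h and 19888090 to 22951827 at 4 h. The B-cell markers CD79A, CD79B, CD22, MS4A1 and PAX5, with CCND1 and SOX11, were all measured in the tested genes, and the summed level of the 17 B-cell identity genes was 4782 to 5387 CPM (counts scaled to a common library total) at 8 h, against 3390 to 4275 CPM at 4 h. Of 14 markers of T and NK cells the summed level was 269 to 381 CPM at 8 h and 166 to 255 CPM at 4 h, nearly all of it from TRBC2, a T-cell receptor constant gene. Of 12 myeloid markers it was 2.84 to 4.07 CPM at 8 h and 2.18 to 3.37 CPM at 4 h, with S100A8, S100A9, FCGR3A and FCN1 at 0 in all 8 libraries. Of 13 stromal and epithelial markers it was 92.3 to 133 CPM at 8 h and 67.3 to 91.8 CPM at 4 h, with VWF and KRT19 at 0. Mitochondrial transcripts took 5.75 to 6.46% of counts at 8 h and 6.94 to 8.74% at 4 h. What part these levels had in the results below was not tested. The ibrutinib library at 8 h stood apart: across genes within that library, its deviations rose with transcript length (Spearman's rho 0.42, against -0.43 to -0.31 in the other 8 h libraries), its ribosomal protein share was 9.25% against 12.7 to 12.9%, and it lay closest to the DMSO library of 12 h. At 12 h the ibrutinib, combination and DMSO libraries had similar values, with rho 0.35, 0.26 and 0.39 and shares of 9.46, 9.38 and 8.95%. The SPX5551 library of 12 h instead resembled the other 8 h libraries, with rho -0.39 and a share of 12.3%. The cause of this pattern across times was not tested. The treatment in a column's header matches the sample titles, but the samples' descriptions assign every column to a different treatment, in the same way at 4, 8 and 12 h. The pairs below do not depend on which is right, only their treatment names do.

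The difference between 8 h and 4 h was widespread and of modest size. Of 60483 genes, 13852 passed the filter on low counts. Of these, 4368 (31.5%) passed the test (edgeR's quasi-likelihood test with treatment as a block, Benjamini-Hochberg adjusted p under 0.05). In the higher direction 2147 genes (15.5%) passed and in the lower direction 2221 (16.0%). The median fold change was 1.34 among the genes that were higher and 0.768 among those that were lower, and 120 and 116 of them were past 2-fold. The median log2 fold change over all 13852 genes was 0.00. The difference had the same sign in 4 of 4 treatments for 4046 of the called genes (29.2% of all tested), 1946 of them higher (14.0%) and 2100 lower (15.2%). The other 322 kept it in 3 treatments. Without treatment as a block 1910 genes passed, all of them among the 4368. The levels of the 4 libraries at 8 h all lay above those at 4 h for 1261 genes (9.1%) and all below for 1474 (10.6%), whether called or not. In these bulk libraries a change in the share of cells in a state and a change in RNA per cell cannot be told apart. Counts of list members below are of those that passed the test and are to be read against 15.5% higher and 16.0% lower over all tested genes. Levels are in CPM on a common scale over the 12 libraries, and values after ± are standard errors of the log2 fold change.

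**Figure D1:**
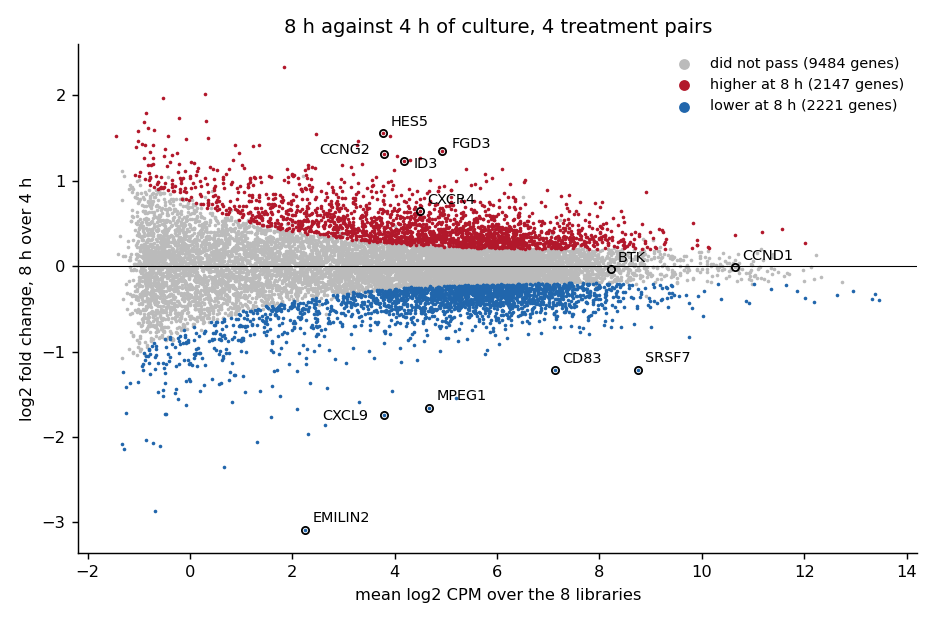
Log2 fold change of 8 h over 4 h (vertical axis) against the mean log2 CPM over the 8 libraries (horizontal axis) for the 13852 tested genes, 1 point per gene. Red points are the 2147 genes called higher at 8 h and blue points the 2221 called lower. EMILIN2 at -3.08 is the largest decrease, and BTK and CCND1 lie on the line at 0.

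Among called genes of mean log2 CPM of at least 2 with the same sign in 4 of 4 treatments, the largest decreases included a matrix protein, chemokines, a pore-forming protein and a splicing factor. EMILIN2, an extracellular matrix glycoprotein (chromosome 18, 2847030 to 2915993, hg38), had 1.77, 1.64, 1.64 and 1.38 CPM at 8 h (ibrutinib, SPX5551, combination and DMSO, the order used for all genes), against 16.7, 9.62, 12.2 and 17.98 CPM at 4 h. It was lower in every treatment, and its log2 fold change was the largest decrease of all tested genes, -3.08 ± 0.16 (SE, adjusted p = 2.15e-15). RFTN1, raftlin, a lipid raft protein of B cells (chromosome 3, 16313574 to 16514026), had 2.31, 3.42, 2.01 and 2.397 CPM at 8 h, against 11.1, 8.54, 8.44 and 11.5 CPM at 4 h, a log2 fold change of -1.96 ± 0.16. CXCL9, a chemokine that attracts T cells through CXCR3, had 7.45, 8.82, 5.93 and 8.52 CPM at 8 h, against 24.1, 20.9, 26.6 and 30.99 CPM at 4 h. Its groups did not overlap, and it fell by 1.74 on the log2 scale. MPEG1, the pore-forming protein perforin-2 of phagocytes and B cells, had 17.1, 15.1, 10.1 and 17.2 CPM at 8 h, against 56.4, 40.7, 28.6 and 66.1 CPM at 4 h, a log2 fold change of -1.66 ± 0.10. CD83, a surface marker of activated B cells, had 63.8, 146, 66.6 and 124 CPM at 8 h, against 140.4, 285, 128 and 437 CPM at 4 h. The CD83 groups overlapped, with the ibrutinib and combination libraries low at both times, and within each treatment 8 h lay below 4 h (log2 fold change -1.22 ± 0.13). SRSF7, a splicing factor of the SR family (chromosome 2, 38743599 to 38751494), had 255, 327, 267 and 304 CPM at 8 h, against 694, 614, 526 and 862 CPM at 4 h. This was the most abundant of the 15 largest such decreases, and its groups were well apart (log2 fold change -1.21 ± 0.09, adjusted p = 1.48e-09). The kinesin KIF26B (-1.86), the tetraspanin TSPAN18 (-1.67), the catenin CTNND1 (-1.46), the adhesion molecule LSAMP (-1.42), CABLES1, a regulator of cyclin-dependent kinases (-1.37), the cGMP phosphodiesterase PDE9A (-1.23) and the serotonin-gated channel HTR3A (-1.14) were also among the 15, with these log2 fold changes. The remaining pair, BCL2A1, a survival protein of the BCL2 family (-1.60), and the chemokine CXCL10 (-1.54), passed with 4 pairs but not without the ibrutinib pair (adjusted p = 0.0563 and 0.0956) or without the combination pair (adjusted p = 0.0536 and 0.0815).

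NF-kappaB target genes were mostly lower at 8 h. Of 26 in the list, all tested, 15 fell, 0 rose and 11 did not pass, and the median log2 fold change was -0.53. The list's median log2 difference was -0.46 in the ibrutinib pair, -0.40 in the SPX5551 pair, -0.40 in the combination pair and -1.0 in the DMSO pair. TNFAIP3, which encodes A20, an enzyme that shuts NF-kappaB signalling down, had 16.4, 23.5, 13.6 and 19.1 CPM at 8 h, against 26.3, 37.6, 24.4 and 45.8 CPM at 4 h. RELB, a subunit of the alternative NF-kappaB arm, had 10.2, 19.5, 16.4 and 16.7 CPM at 8 h, against 28.3, 25.1, 30.8 and 32.8 CPM at 4 h. IRF4, a transcription factor of activated B cells and plasma cells, had 78.96, 81.5, 58.6 and 86.4 CPM at 8 h, against 124, 135, 93.7 and 185 CPM at 4 h. In each of these genes every 8 h library lay below every 4 h library, and the log2 fold changes were -0.87 ± 0.10 (SE, adjusted p = 1.49e-07) for TNFAIP3, -0.93 ± 0.13 (SE, adjusted p = 2.01e-05) for RELB and -0.79 ± 0.08 (SE, adjusted p = 3.81e-08) for IRF4. CD40, the receptor of T-cell help, had 67.8, 90.2, 73.7 and 88.9 CPM at 8 h, against 113, 132, 97.1 and 175 CPM at 4 h, a log2 fold change of -0.67 ± 0.09. BIRC3, an inhibitor of apoptosis, had 36.9, 47.4, 23.1 and 40.3 CPM at 8 h, against 55.5, 67.6, 37.8 and 90.4 CPM at 4 h. CCL4, a chemokine of activated B cells, had 0.674, 2.81, 0.579 and 2.29 CPM at 8 h, against 1.51, 7.35, 1.01 and 9.34 CPM at 4 h. BIRC3 and CCL4 overlapped between times but fell in 4 of 4 treatments (log2 fold changes -0.75 ± 0.10 and -1.47 ± 0.21). CCL4 has a near-identical copy, so its counts are uncertain. TNF, LTA and LTB, cytokines of the same list, did not pass, with log2 fold changes of 0.35, 0.12 and 0.02. Without the ibrutinib pair 13 of the 26 fell and 0 rose, and without the treatment block 9 fell and 0 rose.

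Promoter sequences of 4 named members that fell are shown: windows of 300 bases, from 250 before to 50 after the gene start on the gene's own strand (RefSeq, GRCh38.p14). They are CXCL10 at chr4:76023448-76023747 on the minus strand, TNFAIP3 at chr6:137867009-137867308, IRF4 at chr6:391502-391801 and BIRC3 at chr11:102317234-102317533, the last 3 on the plus strand. Capitals mark the letters of an NF-kappaB site searched on either strand, GGGA and CC with any 4 bases between them.
CXCL10: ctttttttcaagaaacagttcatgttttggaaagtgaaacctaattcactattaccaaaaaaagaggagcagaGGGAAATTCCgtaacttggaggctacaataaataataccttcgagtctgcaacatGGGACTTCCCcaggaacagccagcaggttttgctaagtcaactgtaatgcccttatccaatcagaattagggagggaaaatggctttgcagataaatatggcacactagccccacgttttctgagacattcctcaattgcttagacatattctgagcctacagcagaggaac
TNFAIP3: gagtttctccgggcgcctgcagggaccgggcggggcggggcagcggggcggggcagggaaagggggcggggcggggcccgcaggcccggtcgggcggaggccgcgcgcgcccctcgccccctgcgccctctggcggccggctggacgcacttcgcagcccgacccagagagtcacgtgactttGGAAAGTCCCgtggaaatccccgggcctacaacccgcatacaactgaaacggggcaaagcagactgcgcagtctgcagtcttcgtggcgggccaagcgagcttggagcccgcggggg
IRF4: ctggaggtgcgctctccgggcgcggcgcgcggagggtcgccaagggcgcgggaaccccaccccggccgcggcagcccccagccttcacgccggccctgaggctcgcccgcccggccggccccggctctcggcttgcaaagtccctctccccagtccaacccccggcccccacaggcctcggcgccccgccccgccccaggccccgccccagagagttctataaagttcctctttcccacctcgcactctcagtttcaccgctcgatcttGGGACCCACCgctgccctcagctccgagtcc
BIRC3: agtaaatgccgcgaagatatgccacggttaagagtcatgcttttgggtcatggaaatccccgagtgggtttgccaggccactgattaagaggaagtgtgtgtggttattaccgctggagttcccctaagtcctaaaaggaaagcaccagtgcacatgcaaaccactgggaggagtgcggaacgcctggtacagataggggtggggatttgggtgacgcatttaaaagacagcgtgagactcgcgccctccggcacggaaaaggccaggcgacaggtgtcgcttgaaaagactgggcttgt
The letters stood in the windows of CXCL10, TNFAIP3 and IRF4 and not in that of BIRC3, where no match says only that these letters are not in this window. Of the list's 21 members with a window, 12 held them, and so did 8 of the 12 such members that fell. Over all 10031 tested genes with a window, 30.6% held the letters, with 33.3% of the 1699 genes called higher and 29.9% of the 1740 called lower.

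Ribosome biogenesis genes and related MYC targets were also mostly lower. Of 28, 17 fell, 3 rose and 8 did not pass, with a median log2 fold change of -0.36, and 5 fell without the treatment block. WDR43, a part of the complex that processes the small-subunit ribosomal RNA, had 252, 247, 153 and 264 CPM at 8 h, against 394, 316, 278 and 422 CPM at 4 h. GNL3, nucleostemin, a nucleolar GTPase, had 306, 341, 238 and 352 CPM at 8 h, against 433, 413, 368 and 494 CPM at 4 h. UTP4, of the same processing complex, had 164, 150.3, 119 and 175 CPM at 8 h, against 221, 208, 184 and 229 CPM at 4 h. The groups did not overlap in any of these, although the combination library was the lowest at each time (log2 fold changes -0.64 ± 0.08, -0.48 ± 0.08 and -0.48 ± 0.08). The dyskerin gene DKC1, the polymerase I subunit POLR1B and the methyltransferase NOP2 fell by 0.47, 0.55 and 0.44 on the log2 scale. The 3 that rose were the processing factor BOP1 (0.27), the spermidine synthase SRM (0.35) and the pyrimidine enzyme CAD (0.24), BOP1 and CAD named after their values were seen, and none of the 3 passed in edgeR with the length and GC trend removed. Without the DMSO pair 1 of the list rose. MYC itself did not pass: it had 204, 199, 136 and 213 CPM at 8 h, against 114, 169, 64.7 and 208 CPM at 4 h, a log2 fold change of 0.54 ± 0.19 (SE, adjusted p = 0.0865). The MYC level was higher at 8 h in 4 of 4 treatments, by 0.02 in the DMSO pair and 1.08 in the combination pair on the log2 scale. Messenger RNAs of cytosolic ribosomal proteins, the structural parts of the ribosome, moved little: of 30, 1 rose, 0 fell and 29 did not pass, with 6 higher without the ibrutinib pair and 4 lower with the length and GC trend removed. Translation factors and snoRNA host genes had 8 of 20 tested lower and 0 higher (4 lower without the DMSO pair, 4 without the combination pair, 5 lower and 1 higher without the ibrutinib pair, and 2 lower without the treatment block), among them the helicase EIF4A1 (-0.69 ± 0.12) and the initiation factor EIF3L (-0.42 ± 0.08) by log2 fold change.

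Transcripts of the mitochondrial genome and of sugar and stress metabolism fell in part. Of 13 mitochondrial transcripts, 8 fell, 0 rose and 5 did not pass, with a median log2 fold change of -0.33. Without the DMSO pair 3 fell, and without the treatment block 4. MT-CO3, a subunit of cytochrome c oxidase, had 9355, 10560, 10060 and 9909 CPM at 8 h, against 12110, 12240, 13310 and 14970 CPM at 4 h, a log2 fold change of -0.40 ± 0.09. MT-ATP6, a subunit of ATP synthase, had 4265, 4071, 4050 and 4045 CPM at 8 h, against 4982, 5098, 5286 and 6827 CPM at 4 h, a log2 fold change of -0.43 ± 0.09. The DMSO library of 4 h was the highest of the 8 for both. The nuclear genes of the respiratory chain had 1 of 28 higher and 1 lower, with 6 higher without the ibrutinib pair and 5 with the length and GC trend removed. Of 35 hypoxia and glycolysis genes, 12 fell and 5 rose, with a median of -0.05, and 7 fell and 2 rose without the DMSO pair, where the median was 0.04. Without the combination pair 2 rose and the median was -0.15. LDHA, lactate dehydrogenase, had 1659, 1836, 1429 and 1862 CPM at 8 h, against 2289, 2235, 2016 and 2592 CPM at 4 h. PGK1, phosphoglycerate kinase, had 1145, 1232, 1190 and 1178 CPM at 8 h, against 1560, 1483, 1515 and 1608 CPM at 4 h. BNIP3, a hypoxia-induced mitophagy receptor, had 19.5, 26.5, 29.5 and 21.3 CPM at 8 h, against 36.96, 32.9, 40.8 and 46.2 CPM at 4 h. All 3 were lower in each 8 h library than in any 4 h library (log2 fold changes -0.43 ± 0.08, -0.38 ± 0.08 and -0.70 ± 0.11). TXNIP, which limits glucose uptake and is raised by glucose, had 49.2, 48.7, 52.7 and 40.3 CPM at 8 h, against 86.7, 67.8, 95.5 and 73.03 CPM at 4 h, a log2 fold change of -0.76 ± 0.09 (SE, adjusted p = 9.61e-08). Of 29 tested of 32 genes of the amino acid response and of unfolded protein stress, 13 fell and 6 rose, with a median of -0.08. Without the DMSO pair 3 rose, as without the SPX5551 pair, and the median lay between -0.15 and -0.03 with any 1 pair left out. The falling ones included the transcription factor XBP1 (-0.43), the degradation factors HERPUD1 (-0.45) and SEL1L (-0.53), the folate enzyme MTHFD2 (-0.39) and the amino acid transporter SLC7A5 (-0.42), by log2 fold change. AMD1, which makes the donor for polyamine synthesis, had 168, 181, 128 and 178 CPM at 8 h, against 278, 248, 254 and 296 CPM at 4 h, a log2 fold change of -0.73 ± 0.08. Its list, polyamine synthesis, was split: of 11 genes, 4 rose, 4 fell and 3 did not pass, and without the DMSO pair 1 rose and 2 fell.

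By the same limits, mean log2 CPM included, the largest increases were led by a log2 fold change of 1.56 and included transcriptional repressors, a calcium channel and regulators of signalling. HES5, a transcriptional repressor and Notch target (chromosome 1, 2528745 to 2530245), had 22.9, 24.7, 21.3 and 27.5 CPM at 8 h, against 6.06, 12.3, 8.27 and 6.62 CPM at 4 h. It was higher in every treatment, by 1.56 ± 0.14 (SE, adjusted p = 1.02e-07) on the log2 scale. TRPM2, a calcium-permeable channel, had 9.65, 7.45, 10.9 and 9.99 CPM at 8 h, against 2.84, 4.58, 3.19 and 2.45 CPM at 4 h. EPHB6, an ephrin receptor without kinase activity, had 26.7, 22.2, 32.9 and 23.1 CPM at 8 h, against 9.94, 12.6, 8.35 and 5.87 CPM at 4 h. Neither overlapped between times (log2 fold changes 1.54 ± 0.17 and 1.53 ± 0.17), and the 4 h SPX5551 library was the highest of its time in all 3 genes. CEND1, linked to cell cycle exit in neurons, had 14.7, 14.2, 19.6 and 16.9 CPM at 8 h, against 4.401, 5.97, 7.87 and 5.66 CPM at 4 h, a log2 fold change of 1.46 ± 0.12 (SE, adjusted p = 2.35e-10). FGD3, an activator of the GTPase CDC42, had 49.7, 40.2, 62.97 and 46.6 CPM at 8 h, against 18.5, 24.1, 20.6 and 15.2 CPM at 4 h, a log2 fold change of 1.34 ± 0.12. ID3, an inhibitor of the E-protein transcription factors that direct B-cell development, had 22.2, 24.98, 44.9 and 25.5 CPM at 8 h, against 9.09, 15.2, 12.8 and 11.9 CPM at 4 h. The combination library of 8 h stood above the other 3 for ID3, and without that pair the gene still passed (log2 fold change 1.23 ± 0.14 with 4 pairs, adjusted p = 1.23e-05 without it). Also among the 15 largest increases were the uridine phosphorylase UPP1 (1.42), the zinc finger gene ZNF608 (1.29), the microtubule-binding MAP1A (1.26), LDB3 (1.19), the sphingolipid enzyme DEGS2 (1.18) and PIK3CG, the gamma catalytic subunit of PI3-kinase (1.16), by log2 fold change.

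FOXO targets and genes of quiescence were mostly higher. Of 19 tested of 20, 14 rose, 1 fell and 4 did not pass, with a median log2 fold change of 0.50, and 7 rose without the treatment block. The median log2 difference was 0.59 in the ibrutinib pair, 0.31 in the SPX5551 pair, 0.56 in the combination pair and 0.50 in the DMSO pair. CCNG2, an unconventional cyclin that restrains the cell cycle, had 23.9, 23.3, 21.3 and 20.6 CPM at 8 h, against 7.24, 15.6, 7.26 and 7.42 CPM at 4 h. KLHL24, a ubiquitin ligase adaptor, had 18.6, 16.5, 17.3 and 12.1 CPM at 8 h, against 6.01, 12.1, 7.04 and 4.05 CPM at 4 h. The 4 h SPX5551 library was high for both, and for KLHL24 it met the 8 h DMSO library (log2 fold changes 1.31 ± 0.15 and 1.20 ± 0.16). TSC22D3, which encodes the glucocorticoid-induced leucine zipper, had 24.3, 24.5, 20.7 and 25.3 CPM at 8 h, against 10.7, 18.98, 11.6 and 12.9 CPM at 4 h, a log2 fold change of 0.83 ± 0.11 (SE, adjusted p = 2.44e-06). YPEL3, a growth-suppressing gene, had 5.36, 4.45, 10.3 and 4.54 CPM at 8 h, against 2.32, 3.09, 4.199 and 2.03 CPM at 4 h, a log2 fold change of 1.06 ± 0.16. The factors FOXO1 and FOXO4 were among the 14, with log2 fold changes of 0.42 and 0.57, and so were the insulin pathway genes IRS2 (0.68) and INSR (0.50) and PIK3IP1, an inhibitor of PI3-kinase (0.97). The one that fell was TXNIP, described above. Of 10 tested of 13 G1 cyclins and inhibitors of cyclin-dependent kinases, 3 rose, 1 fell and 6 did not pass, and none fell in edgeR without the combination pair. CDKN2C, which encodes the inhibitor p18, had 244, 256, 302 and 242 CPM at 8 h, against 141, 181, 154 and 142 CPM at 4 h, and CDKN1B, p27, had 48.3, 51.8, 56.4 and 49.4 CPM at 8 h, against 38.2, 41.1, 43.1 and 30.2 CPM at 4 h. Both groups were apart, with log2 fold changes of 0.75 ± 0.08 (SE, adjusted p = 5.19e-08) and 0.43 ± 0.09 (SE, adjusted p = 0.000335). The cyclin gene CCND3 rose by 0.60 ± 0.10 on the log2 scale, whereas CCND1, the cyclin that defines the disease, had 1505, 1670, 1552 and 1758 CPM at 8 h, against 1701, 1572, 1577 and 1669 CPM at 4 h and did not pass (log2 fold change -0.01 ± 0.08, adjusted p = 0.921). With some other settings the CCND1 value was slightly above 0.

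Genes of sterol synthesis and uptake were higher at 8 h in part. Of 24 tested of 26, 13 rose, 0 fell and 11 did not pass, with a median log2 fold change of 0.33. The list's median log2 difference was 0.48 in the ibrutinib pair, 0.30 in the SPX5551 pair, 0.175 in the combination pair and 0.46 in the DMSO pair. Without the combination pair 17 rose. TM7SF2, a sterol reductase, had 37.2, 39.5, 39.4 and 47.9 CPM at 8 h, against 18.7, 24.99, 24.8 and 17.7 CPM at 4 h. MVD, mevalonate diphosphate decarboxylase, had 55.6, 56.4, 66.8 and 72.1 CPM at 8 h, against 34.3, 31.3, 46.7 and 35.5 CPM at 4 h. Neither overlapped between times (log2 fold changes 0.93 ± 0.11, adjusted p = 4.09e-07 and 0.77 ± 0.09, adjusted p = 1.49e-07). ACAT2, which makes acetoacetyl-CoA, the entry to the pathway, had 243, 247, 203 and 282 CPM at 8 h, against 143, 200.4, 141 and 153 CPM at 4 h, a log2 fold change of 0.61 ± 0.09. MSMO1, a methylsterol oxidase, had 165, 169, 117 and 193 CPM at 8 h, against 90.95, 117, 83.1 and 101 CPM at 4 h. The MSMO1 groups met, with the combination library the lowest at each time, yet 8 h was above 4 h in each treatment (log2 fold change 0.70 ± 0.08). The squalene enzymes FDFT1 (0.38) and SQLE (0.38) and the regulator SREBF2 (0.25) also rose on the log2 scale, whereas INSIG1, which holds back the pathway's regulators (-0.14), and STARD4, a sterol carrier (-0.14), did not pass.

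B-cell identity genes were mostly higher as well. Of 17, 11 rose, 1 fell and 5 did not pass, with a median log2 fold change of 0.37, and 6 rose without the treatment block. The list's median log2 difference was smallest in the SPX5551 pair (0.06) and largest in the combination pair (0.52). POU2AF1, the B-cell coactivator OCA-B, had 273, 214, 212 and 226 CPM at 8 h, against 142, 159.9, 102 and 118 CPM at 4 h. Its partner POU2F2, OCT2, had 409, 396, 458 and 469 CPM at 8 h, against 278, 310.3, 221 and 304 CPM at 4 h. CIITA, the driver of MHC class II genes, had 46.4, 33.5, 29.6 and 39.98 CPM at 8 h, against 23.9, 27.6, 18.5 and 24.8 CPM at 4 h. Each was higher in every 8 h library than in any 4 h library (log2 fold changes 0.84 ± 0.09, adjusted p = 1.06e-07, 0.64 ± 0.09 and 0.65 ± 0.10). CD79A, a signalling chain of the B-cell receptor, had 1006, 1071, 1207 and 1131 CPM at 8 h, against 764, 877, 708 and 758 CPM at 4 h, a log2 fold change of 0.50 ± 0.08. The one that fell was CD72 (-0.37), a co-inhibitory receptor, which did not pass without the DMSO pair, and MS4A1, which encodes CD20, did not pass (-0.04). Of 26 components of B-cell receptor signalling, 11 rose, 3 fell and 12 did not pass. The adaptor BLNK (0.53 ± 0.09), the kinase BLK (0.58 ± 0.09), phospholipase PLCG2 (0.45 ± 0.08) and the inhibitory phosphatase INPP5D (0.59 ± 0.09) rose by these log2 fold changes, and the exchange factor RASGRP1 fell by 0.80. BTK, the kinase ibrutinib binds, had 332, 294, 265 and 307 CPM at 8 h, against 316, 320.2, 272 and 314 CPM at 4 h and did not pass (log2 fold change -0.03 ± 0.08, adjusted p = 0.772). With some other settings its value was slightly above 0. CXCR4, the receptor SPX5551 blocks (chromosome 2, 136114349 to 136118165), had 28.9, 26.7, 32.6 and 26.01 CPM at 8 h, against 16.7, 22.1, 16.5 and 17.9 CPM at 4 h. Its groups did not overlap, and its log2 fold change was 0.65 ± 0.11 (SE, adjusted p = 2.67e-05). Of 21 tested of 26 genes of chemokine reception, adhesion and migration, 8 rose and 3 fell, with 4 higher without the treatment block. S1PR2, a receptor that keeps B cells in germinal centres, had 20.3, 17.2, 18.7 and 20.5 CPM at 8 h, against 8.85, 13.1, 10.4 and 8.11 CPM at 4 h. Its groups did not overlap, and its log2 fold change was 0.93 ± 0.12 (SE, adjusted p = 2.99e-06).

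**Figure D2:**
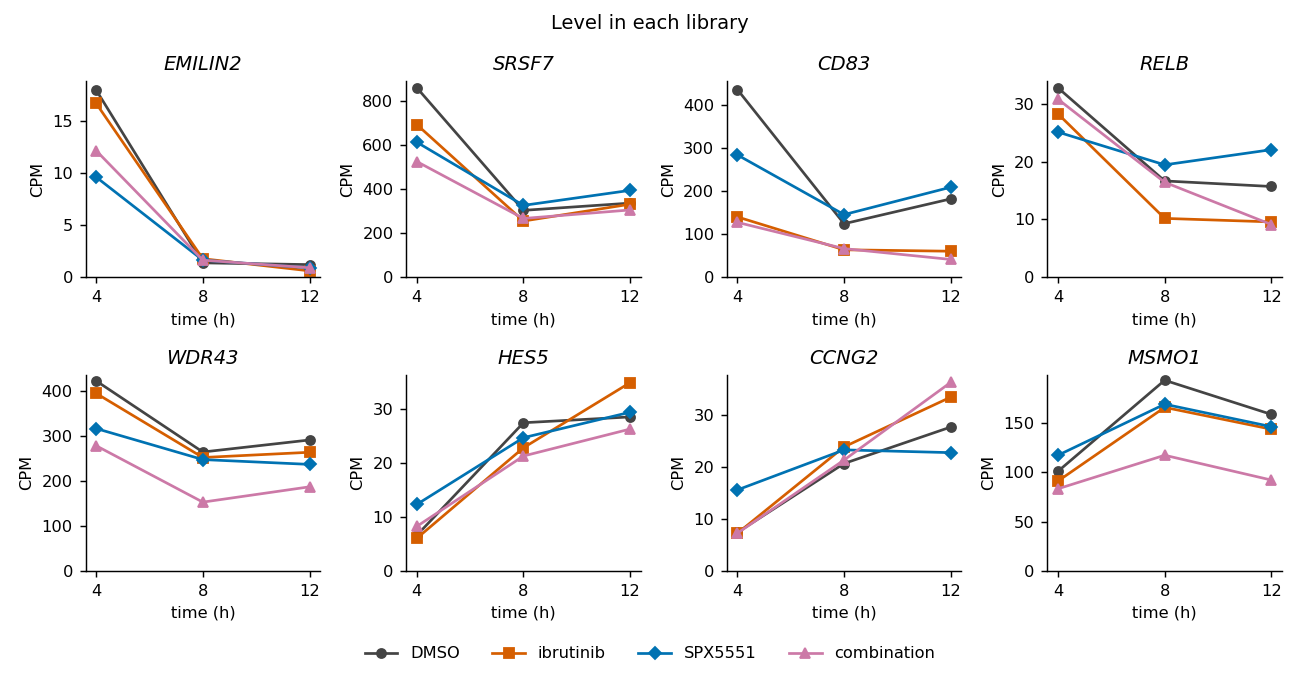
Levels in CPM (vertical axis, starting at 0) of 8 genes at 4, 8 and 12 h (horizontal axis), 1 point per library and 1 line per treatment. EMILIN2, SRSF7, CD83, RELB and WDR43 lay lower at 8 h than at 4 h in each treatment, and HES5, CCNG2 and MSMO1 lay higher.

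Other lists rose in part. Of 31 tested of 35 immediate early genes, 10 rose, 1 fell and 20 did not pass, with a median log2 fold change of 0.25 and opposite signs between pairs, from -0.30 in the DMSO pair to 0.56 in the combination pair. Without the DMSO pair the median was 0.45, and 2 fell without the SPX5551 or the combination pair. BTG2, an antiproliferative cofactor, had 199, 149.9, 204 and 152 CPM at 8 h, against 84.5, 114, 88.2 and 90.8 CPM at 4 h, DUSP5, a phosphatase of ERK, had 56.2, 67.1, 72.7 and 60.1 CPM at 8 h, against 26.03, 44.4, 26.2 and 37.8 CPM at 4 h, and IER2 had 26.6, 38.9, 37.97 and 34.1 CPM at 8 h, against 14.5, 23.1, 19.6 and 25.6 CPM at 4 h. All 3 were apart between times (log2 fold changes 0.89 ± 0.12, 0.96 ± 0.12 and 0.75 ± 0.10). Of 22 tested of 24 cytosolic chaperones and heat shock genes, 13 rose and 2 fell, with a median of 0.26. HSP90AA1, the inducible HSP90, had 3386, 3563, 3567 and 3846 CPM at 8 h, against 2417, 2999, 2597 and 2599 CPM at 4 h, and its activator AHSA1 had 355, 363, 398 and 398 CPM at 8 h, against 237, 309, 226 and 258 CPM at 4 h. Both were higher in every 8 h library (log2 fold changes 0.44 ± 0.08 and 0.56 ± 0.08), while the co-chaperone DNAJB1 was lower (log2 fold change -0.38 ± 0.08). Of 29 autophagy and lysosome genes, 12 rose and 1 fell (6 higher without the DMSO pair, 7 without the combination pair and 5 without the treatment block, and 2 lower without the ibrutinib or the combination pair), with a median of 0.16. CTSD, the protease cathepsin D, had 37.2, 40.8, 57.1 and 39.7 CPM at 8 h, against 25.03, 26.3, 31.3 and 23.3 CPM at 4 h, a log2 fold change of 0.71 ± 0.09 (SE, adjusted p = 6.47e-07). The lipid scramblase ATG9A (0.73 ± 0.10) and TFEB, a transcription factor of lysosomal genes (0.37 ± 0.08), rose by log2 fold change. Of 27 tested of 32 interferon-stimulated genes, 8 rose, 2 fell and 17 did not pass, with a median of 0.29, or 0.15 without the combination pair. The median difference was -0.05 in the DMSO pair and 0.18 to 0.37 in the other 3. IRF1, an interferon regulatory factor, had 38.01, 35.2, 42.5 and 33.3 CPM at 8 h, against 19.02, 24.6, 17.1 and 14.03 CPM at 4 h, a log2 fold change of 1.01 ± 0.11 (SE, adjusted p = 1.56e-07), whereas the antiviral MX1 fell by 0.46 on the log2 scale. In the BCL2 family 6 of 14 tested rose and 2 fell, with 1 lower without the ibrutinib or the combination pair. The pore-forming death effector BAK1 had 44.8, 48.4, 52.2 and 47.8 CPM at 8 h, against 36.6, 41.7, 37.6 and 28.9 CPM at 4 h, and BID, which activates it, had 62.7, 82.6, 67.7 and 79.3 CPM at 8 h, against 102, 90.4, 93.2 and 116 CPM at 4 h. BAK1 was higher and BID lower at 8 h, with log2 fold changes of 0.42 ± 0.09 and -0.46 ± 0.09.

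Cell cycle lists were split. Of 38 mitosis genes, 15 rose, 8 fell and 15 did not pass, with a median of 0.08. Without the DMSO pair 7 rose, and without the combination pair 4 fell. CDC25B, a phosphatase that opens mitosis, had 227, 197, 226 and 204 CPM at 8 h, against 136, 142, 121 and 115 CPM at 4 h, a log2 fold change of 0.73 ± 0.08. PLK1, a mitotic kinase, had 207, 175, 202 and 194 CPM at 8 h, against 156, 145, 157 and 131 CPM at 4 h, a log2 fold change of 0.39 ± 0.08. KIF23, a kinesin of the dividing cell's midbody, had 57.6, 43.3, 45.9 and 46.3 CPM at 8 h, against 79.1, 63.2, 79.7 and 76.3 CPM at 4 h, a log2 fold change of -0.63 ± 0.08. The groups did not overlap in any of these, and KIF23 went the other way from CDC25B and PLK1. Of 45 DNA replication and G1/S genes, 11 fell, 7 rose and 27 did not pass, with a median of -0.02. Without the DMSO pair 6 fell and 3 rose, and without the combination pair 7 fell. CDC25A, a phosphatase of S-phase entry, had 155, 144, 128 and 149.5 CPM at 8 h, against 229.5, 190.3, 206 and 207 CPM at 4 h, a log2 fold change of -0.53 ± 0.08. The replication loader CDC6 fell by 0.38 on the log2 scale. Of 10 tested replication-dependent histone genes, 0 passed in the edgeR fit used above, and these transcripts largely lack the poly(A) tail by which RNA was selected. In other edgeR fits, 1 rose without the DMSO pair, 1 rose with no filter on low counts, and 1 rose and 1 fell with the length and GC trend removed. Proteasome subunits had 2 of 26 higher and 1 lower, with 5 higher without the ibrutinib pair and 1 without the DMSO or the combination pair. Of 22 tested p53 targets 6 rose and 3 fell (4 and 1 without the DMSO pair), and of 15 tested circadian clock genes 3 rose and 1 fell.

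**Figure D3:**
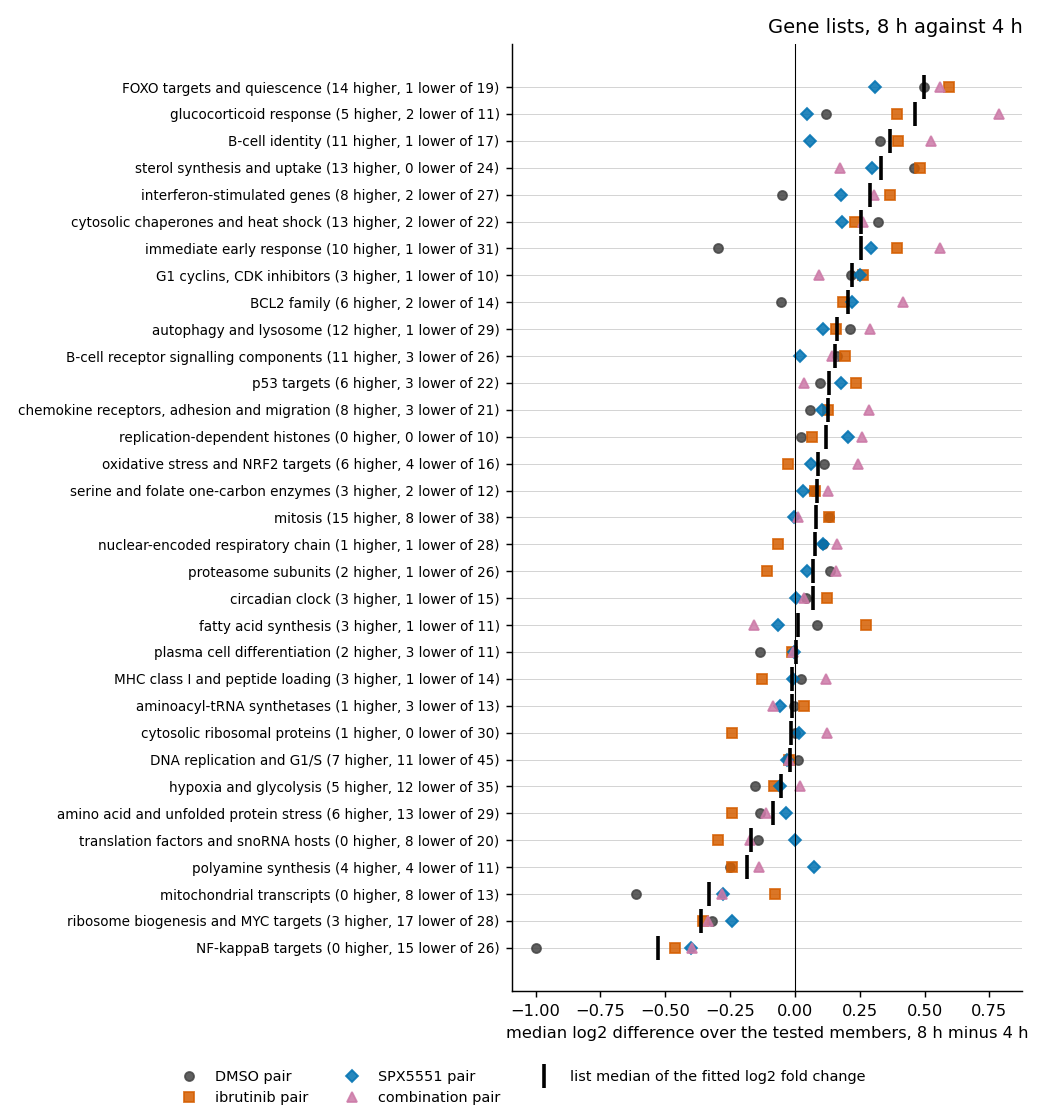
Median log2 difference of 8 h minus 4 h over the tested members of each list with at least 10 of them (horizontal axis), 1 symbol per treatment pair, with a black bar for the median of the fitted log2 fold change. FOXO targets (median 0.50) stand at the top and NF-kappaB targets (-0.53) at the bottom, and the SPX5551 pair lies nearest to 0 in many lists. The counts beside each name are members called higher and lower.

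The same comparison was made without the ibrutinib pair, whose 8 h library stood apart. Of 13800 genes, 3837 (27.8%) passed with the 3 remaining pairs, 2011 higher and 1826 lower. Of these, 3446 were also called with 4 pairs, which is 89.8% of the calls with 3 pairs and 78.9% of those with 4, and all 3446 had the same sign. The left-out pair can be read as a set of libraries the calls did not use. Of 3830 genes called from the other 3 pairs and measured in the ibrutinib pair, 89.9% had the same sign of difference there. The genes called higher had a median log2 difference of 0.34 in the ibrutinib pair (0.43 in the fit), and those called lower -0.34 (-0.40 in the fit). Leaving out each other pair in turn gave 91.5% of 3884 genes for the SPX5551 pair, 95.9% of 2989 for the combination pair and 96.9% of 2699 for the DMSO pair. Over all tested genes 48.0 to 51.4% were positive in a left-out pair. All 4 pairs shared a trend with the GC content of the transcripts, described below. Spearman's rho of the difference with GC content across genes was 0.17 in the ibrutinib pair, 0.27 in the SPX5551 pair, 0.38 in the combination pair and 0.32 in the DMSO pair. What part this shared trend had in the equal signs was not tested. Equal signs also cannot separate time from other differences between 8 h and 4 h libraries that all pairs shared. The SPX5551 pair carried the smallest differences, with an SD across the 10048 genes of mean log2 CPM of at least 2 of 0.25, against 0.37 in the ibrutinib pair, 0.41 in the combination pair and 0.37 in the DMSO pair. Across these genes, which are not independent replicates, Pearson's r between the differences of any 2 pairs was 0.53 to 0.72.

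**Figure D4:**
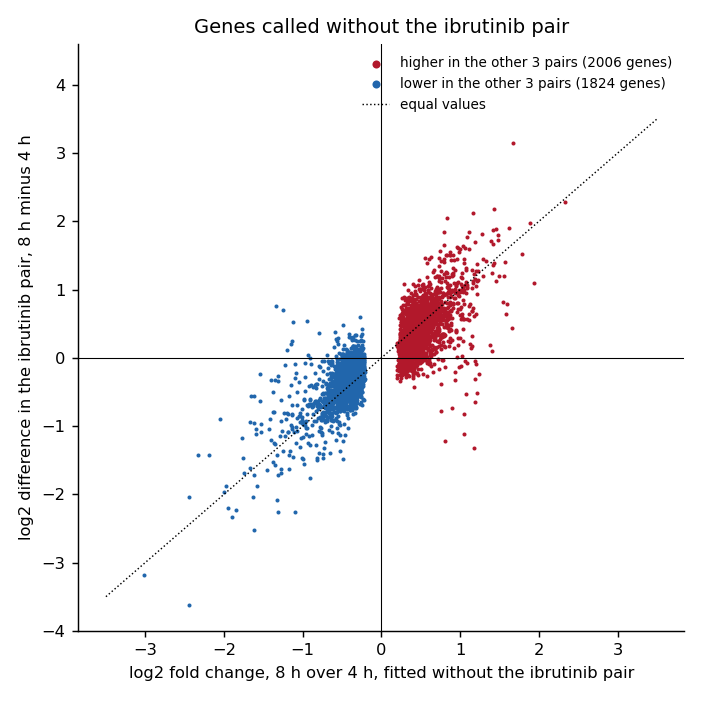
Log2 difference of 8 h minus 4 h in the ibrutinib pair (vertical axis) against the log2 fold change fitted without that pair (horizontal axis), for the 2006 genes called higher (red) and the 1824 called lower (blue) from the other 3 pairs, 1 point per gene. Most points lie in the quadrants of equal sign, and the dotted line marks equal values.

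At 12 h the means of most genes called with the same sign in 4 of 4 treatments lay on the 8 h side of their 4 h means. These genes were picked by their 8 h and 4 h levels, and the same 4 h means were used again. Part of this therefore follows from the choice of genes, and no share over all tested genes stands beside the counts. Of the 1946 genes that were higher in 4 of 4 treatments, the mean of the 12 h libraries lay beyond the 8 h mean for 820, between the 4 h and 8 h means for 1030 and on the other side of the 4 h mean for 96. Of the 2100 that were lower, these numbers were 777, 1219 and 104. In EMILIN2 the mean level was 14.1 CPM at 4 h, 1.61 CPM at 8 h and 0.904 CPM at 12 h. In HES5 it was 8.32 CPM at 4 h, 24.1 CPM at 8 h and 29.8 CPM at 12 h. MVK, mevalonate kinase, was among the genes whose 12 h mean came back past the 4 h mean, with 66.9 CPM at 4 h, 97.8 CPM at 8 h and 66.5 CPM at 12 h.

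A dependence of the difference between times on ibrutinib passed the test for a handful of genes, which does not show that the other genes lacked it. In a model with an interaction of time with ibrutinib exposure, 11 genes (0.0794%) passed, and in all 11 the interaction was positive, so that 8 h stood higher relative to 4 h with ibrutinib (the ibrutinib and combination pairs) than without it. EGR1, a transcription factor induced by B-cell receptor signals, had 5.11 and 6.16 CPM at 8 h against 0.710 and 0.875 CPM at 4 h with ibrutinib. Without ibrutinib it had 8.11 and 12.9 CPM at 8 h against 10.2 and 8.33 CPM at 4 h in the DMSO and SPX5551 pairs. The interaction was 2.67 ± 0.34 on the log2 scale (SE, adjusted p = 3.02e-11, edgeR). TNF, an inflammatory cytokine, had 4.19 and 1.87 CPM at 8 h against 1.04 and 0.437 CPM at 4 h with ibrutinib, and 10.9 and 8.82 CPM at 8 h against 14.3 and 10.7 CPM at 4 h without it (interaction 2.38 ± 0.35, adjusted p = 1.41e-07). ICAM1, the adhesion ligand of LFA-1, had 36.0 and 27.3 CPM at 8 h against 32.6 and 22.6 CPM at 4 h with ibrutinib, and 37.3 and 40.8 CPM at 8 h against 76.8 and 59.4 CPM at 4 h without it (interaction 1.01 ± 0.19, adjusted p = 0.000271). LRRC32 (1.94 ± 0.34, adjusted p = 6.96e-05) and RBM20 (1.22 ± 0.24, adjusted p = 0.000776) followed by p. MYC was among the 11 (interaction 0.83). For SPX5551 exposure 8 genes (0.0578%) passed the interaction, CXCL10 and BCL2A1 with a positive value (0.90 and 1.38), so that they fell less with SPX5551, and UBR4, DNHD1 and CSPG4P13 with a negative one (-0.76, -0.98 and -1.59). These counts rest on 2 pairs against 2 and moved with the settings, down to 1 and 0 genes with all 12 libraries in the fit and to 3 and 0 with DESeq2. If the free-text descriptions were right, the ibrutinib interactions would change sign and the SPX5551 ones would set other pairs against each other.

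The difference between times followed the base composition of the transcripts. The median GC content of the longest transcript was 56.3% in the genes called higher, 42.6% in those called lower and 48.1% over all tested genes. In the decile of genes with the lowest GC content 5.01% were called higher and 31.5% lower, and in the decile with the highest 36.6% and 3.99%. Across genes within a library, Spearman's rho of the deviation with GC content was 0.07 to 0.42 at 8 h and -0.21 to -0.13 at 4 h, so that 8 h and 4 h did not overlap. At 12 h it was -0.15 in the ibrutinib library, 0.12 with SPX5551, -0.04 with the combination and -0.12 with DMSO. The 12 h values thus reached into both ranges, and the shift did not simply continue with time. Length was less related, and the sign of its relation differed between pairs. Spearman's rho of the difference with transcript length was 0.149 in the ibrutinib pair, -0.154 in the SPX5551 pair, -0.202 in the combination pair and -0.055 in the DMSO pair. The median transcript length was 3447 bases in the genes called higher, 4144 in those called lower and 3147.5 in those that did not pass. With each library's trend with length and GC content removed, 4341 genes passed, of which 3272 were shared with the 4368, with no sign changed. In that fit 0 NF-kappaB targets rose and 17 fell, 0 ribosome biogenesis genes rose and 20 fell, and 14 FOXO targets rose and 1 fell. Of the sterol genes 14 rose and 0 fell, and of the B-cell identity genes 11 rose and 1 fell. The B-cell identity median was smaller, 0.24 against 0.37 with the trend kept. Of B-cell receptor signalling components 10 rose and 5 fell, against 11 and 3, and their median was 0.06 against 0.16. Translation factors and snoRNA host genes had 5 lower, against 8. Beyond these fits, the part of base composition in single results was not tested.

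**Figure D5:**
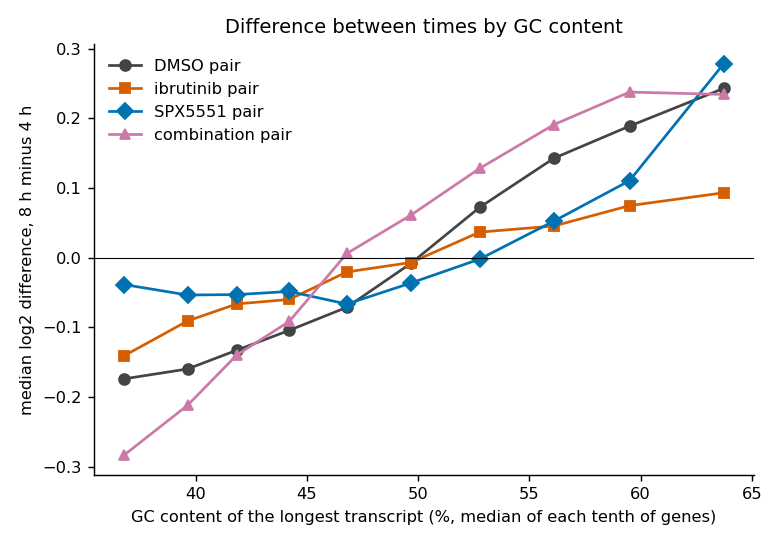
Median log2 difference of 8 h minus 4 h (vertical axis) in each decile of the tested genes by transcript GC content, placed at the decile's median GC percentage (horizontal axis), 1 line per treatment pair. The medians climb from -0.28 to 0.23 in the combination pair and from -0.14 to 0.09 in the ibrutinib pair.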

How the data were processed

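RNA was poly(A)-selected and made into directional libraries, per the labels' protocols. Reads were aligned with BWA to hg38, per the submitters' processing notes. The counting tool, annotation, strand setting and BWA version are not stated in the sources used here, and the labels call the molecule genomic DNA although the protocol extracts RNA. The raw counts per gene were used as deposited by the authors, with time and treatment taken from each column's header. The ibrutinib columns ("ibr") match no sample's title letter for letter. The authors' deposited log2 CPM table (14767 genes) was used only for one alternative.

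The 8 libraries were fitted with treatment and time in edgeR 4.0.16 (R 4.3.3): TMM scaling, filterByExpr by time and the quasi-likelihood F-test, Benjamini-Hochberg adjusted over 13852 genes. Pairs were taken from the treatment labels. Differences within a pair are of log2 CPM with a prior count of 2. Interactions of time with ibrutinib or SPX5551 exposure used the same libraries. Gene names came from a separate list of gene symbols, or from GENCODE 29 where that list had none. Gene positions, transcript lengths and GC content came from GENCODE 29, and promoters from RefSeq. Alternatives used limma 3.58.1 and DESeq2 1.42.0. On simulated counts of 13664 genes the test called 68.0% of 97 genes changed by 0.5 on the log2 scale, 86.9% of 99 changed by 1 and 6 of 13468 unchanged. The simulated counts were drawn independently for each gene, with only these genes changed and no trend with length or GC content between times. They therefore do not give the rate of false calls in these data. Named genes were the 15 largest changes each way among called genes of mean log2 CPM of at least 2 with the same sign in 4 of 4 treatments, those of smallest p in each list, the leading interactions and the drug targets. Members and lists were chosen with earlier results of these data known. Results for a few genes are not reported here.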

Additional observations from a re-analysis of the deposited data

Results flagged for a closer look

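A single library lay far from the other 3 of its time in 5 of 78 groups of 4 values examined, and chance flags about 1 group in 20. CCNG2 had 15.58 CPM in the SPX5551 library at 4 h, against 7.24 to 7.415 CPM in the others. ID3 had 44.85 CPM in the combination library at 8 h, against 22.18 to 25.5 CPM in the others. BTK had 272.3 CPM in the combination library at 4 h, against 314.2 to 320.2 CPM in the others. In the ibrutinib library at 8 h the ribosomal protein share was 9.25% of counts (12.66 to 12.94% in the others), and Spearman's rho of gene deviations with transcript length was 0.422 (-0.427 to -0.313 in the others).

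The difference between times itself differed with ibrutinib exposure for 11 genes in edgeR. The interactions on the log2 scale were 2.67 for EGR1, 2.376 for TNF, 1.937 for LRRC32, 1.008 for ICAM1, 1.215 for RBM20, 0.8334 for MYC, 0.9724 for NR4A1, 1.184 for RASGEF1B, 3.195 for 7SK, 1.093 for EIF3C and 3.26 for H1-4. EGR1 and NR4A1 are immediate early genes of B-cell receptor signalling. 7SK and H1-4 are transcripts that largely lack a poly(A) tail, and EIF3C has a near-identical copy, so that its counts are uncertain. With SPX5551 exposure the difference between times differed for 8 genes: 1.383 for BCL2A1, 0.9004 for CXCL10, -0.9761 for DNHD1, -1.591 for CSPG4P13, -0.7566 for UBR4, -0.7496 for SPEN, -0.7029 for MKI67 and -0.9144 for DNASE1. The largest adjusted p among them was 0.0423.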

How the results depend on the processing

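The count of genes called was 4350 with RLE scaling, 4392 with upper quartiles, 4312 by library size, 3614 with DESeq2, 4364 with limma-voom, 4297 with limma-trend on the deposited log2 CPM, 3959 with no filter, 3788 at a mean CPM of at least 5, 3855 with all 12 libraries and 4341 with the length and GC trend removed, against 4368. By library size 57.9% of calls were higher, against 49.2%. Leaving out 1 pair gave 2710 (without DMSO) to 3896, and 2992 without the combination pair. With no replicate block (no treatment term) 1910 passed, and 1892 in 4 of 4 treatments. The count in 4 of 4 treatments was 4046 in the fit with the block. With a pair left out, 2634 to 3853 genes passed with the same sign in all the pairs kept, which asks for fewer equal signs. With the trend removed and the ibrutinib pair left out, a setting chosen after seeing the data, 3360 passed. In none of these settings did a gene called there and among the 4368 change sign. Without the block, list counts fell to 8 higher for chaperones, 5 higher and 3 lower for mitosis, 1 higher and 7 lower for hypoxia and glycolysis, 1 higher and 8 lower for amino acid and unfolded protein stress, 5 higher for interferon-stimulated genes and 3 higher for the BCL2 family.

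Time by ibrutinib exposure gave 7 genes with RLE scaling, 6 by library size, 3 with DESeq2, 6 at the stricter filter, 1 with all 12 libraries and 6 with the trend removed. Time by SPX5551 exposure gave 0 with DESeq2, 15 with no filter, 1 at the stricter filter, 0 with all 12 libraries and 1 with the trend removed. The cause was not tested. With a pair left out the interactions were not refitted. Of 3311 values of 212 named gene results under the alternatives, 3072 kept direction and side of the threshold, 221 no longer passed, 9 newly passed and 9 turned in sign. The last were BTK (0.0003 by library size, 0.0131 with the trend removed, -0.0549 to 0.0058 with a pair left out), CCND1 (0.0214 by library size, 0.0012 with no filter, 0.0025 with the trend removed, -0.0426 to 0.0565 with a pair left out, 0.0909 with the trend removed and the ibrutinib pair left out) and FASN, which turned only with the trend removed and the ibrutinib pair left out (-0.0147, against 0.2117 to 0.4699 with only a pair left out). What depth limits in single genes was not tested.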

Other observations

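Families of genes picked after their values were seen showed further shared shifts, and their counts are descriptions. Of 12 SR splicing factor genes (SRSF), 7 were lower at 8 h and 0 higher, with a median log2 fold change of -0.36. Removing the trend with length and GC content left a median of -0.21 with 6 lower, and leaving out the ibrutinib pair as well a median of -0.10 with 5 lower. After SRSF7 the largest decreases were in SRSF2 (-0.71), SRSF6 (-0.71) and SRSF5 (-0.63). Of 34 DDX RNA helicase genes, 15 were lower and 3 higher (12 and 0 without the DMSO pair, 8 and 0 without the treatment block), and of 11 UTP genes of small-subunit ribosomal RNA processing 9 were lower and 0 higher, or 3 lower without the treatment block. The UTP median was -0.35, or -0.20 with the trend removed. Of 8 interferon regulatory factor genes (IRF), 6 were higher and only IRF4 lower. IRF1 (1.01), IRF2 (0.88), IRF7 (0.71) and IRF8 (0.62) led them by log2 fold change. None of these family medians changed sign under any scaling run.

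The glucocorticoid response was mixed. Of 11 tested genes of the glucocorticoid response 5 were higher and 2 lower. The clock gene PER1 had 14.5, 11.3, 10.7 and 12.1 CPM at 8 h, against 6.01, 8.69, 6.04 and 7.202 CPM at 4 h, and the stress-induced inhibitor of mTORC1 signalling DDIT4 had 11.2, 14.1, 12.7 and 11.2 CPM at 8 h, against 6.86, 10.7, 7.305 and 8.802 CPM at 4 h. Both were higher in every 8 h library than in any 4 h library (log2 fold changes 0.80 ± 0.13 and 0.56 ± 0.12).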
